A study of Homo sapiens with 16 samples.

Results

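The response to epidermal growth factor (EGF) in human fibroblasts that had first been given the kinase inhibitor H89 was read from 5 RNA libraries of the 16 in the series. The members were taken from the treatment labels: 2 libraries labelled as given both EGF and H89 (EGF+H89) and 3 labelled as given H89. All were made from CCD-1070Sk, a normal skin fibroblast line, and all cells had been starved of serum. EGF+H89 cells received 10 µM H89 for 30 min and then EGF at 30 ng/ml for 1 h. H89 cells received 10 µM H89 for 30 min and carry the time label 0 h. A second set of groups gave the response without the inhibitor: 3 EGF libraries, from starved cells given EGF at 30 ng/ml for 1 h, and 3 Control libraries, from starved cells left untreated. Control 3 and Control 4 as deposited had equal counts throughout and were used as 1 sample, so the series has 15 distinct libraries. The rest of these, labelled TPA and TPA+H89, came from cells given the compound TPA for 1 h, without or after 10 µM H89 for 30 min. They entered the fits, where they helped to set the spread and the batch terms, but are not compared here.

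EGF binds its receptor, a tyrosine kinase, and switches on the RAS, RAF, MEK and ERK cascade. ERK phosphorylates transcription factors such as ELK1 and activates the kinases MSK1 and MSK2, which phosphorylate histone H3 and the factor CREB at the start of immediate-early genes. Immediate-early genes are transcribed within minutes of a growth signal and need no new protein, and many encode transcription factors or brakes on the pathway itself. H89 was developed as an inhibitor of protein kinase A and also inhibits MSK1. Kinase activity and histone phosphorylation are not in the counts, so how far H89 acted in these cells was not measured here.

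The 5 libraries held 24047897 to 68230979 counted reads. EGF+H89 1 and 2 correlated at 0.976 in log2 CPM, the reads of a gene scaled to a common library size, and the H89 libraries at 0.968 to 0.985. EGF+H89 1 and H89 1 carried 24.8% and 26.3% of their reads in 2 ribosomal RNA genes that were at 0 in EGF+H89 2, H89 2 and H89 3. That split was used as a technical batch read from the counts, and it made 2 matched pairs, EGF+H89 1 with H89 1 and EGF+H89 2 with H89 2, each of which also shares a set of sample names. H89 3 has no EGF+H89 library of its own set. The 20 fibroblast genes were detected throughout, with summed levels of 43365 to 45470 CPM in EGF+H89 and 42294 to 61426 CPM in H89. Summed levels of keratinocyte, endothelial, melanocyte and leukocyte markers stayed between 2.23 and 67.5 CPM in the 5 libraries, and KRT14, TYR and CD3E were at 0 in all of them. Other members were detected. The highest of each list by mean, in that order, were DSP (12.3 to 29.6 CPM), TEK (1.33 to 4.18 CPM), MITF (22.7 to 43.6 CPM) and CD68 (40.9 to 65.9 CPM). No label says that the libraries came from separate cultures, so p-values measure the spread between samples. That spread was estimated from all the fitted libraries of the series, not from these 5 alone. The time in H89 may differ between the groups, so EGF and a longer stay in H89 cannot be told apart.

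Growth factor response genes were higher in EGF+H89 than in H89. With 1 term per group in edgeR's quasi-likelihood test, 5 of 18575 tested genes were higher in EGF+H89 than in H89 at a Benjamini-Hochberg adjusted p under 0.05, which is 0.0269% of those tested. These were EGR2, KLF10, CSRNP1, TGIF1 and TMEM88. With the technical batch added as a term, 50 genes were higher, 0.269% of those tested, and they included all 5. Of the 50, 43 had a mean of at least 1 CPM over the 5 libraries. In each of the 50, both EGF+H89 libraries stood above all 3 H89 libraries and both matched pairs were positive. The libraries stood so at 10.7% of all tested genes, and the 50 were called from these same libraries, so this adds no support. Their log2 fold changes with the batch term ran from 1.26 in SLC25A25, a mitochondrial carrier, to 7.08 in HES1, leaving aside the small RNA gene MIR24-2, which was at 0 in H89.

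No gene was lower in EGF+H89 in either fit, 0% of those tested, although before adjustment 284 genes with groups only and 546 with the batch term were under 0.05 in either direction. DESeq2 called 50 genes higher and 1 lower, ZNF792, at a log2 fold change of -1.43, and limma with sample weights called 191 higher and 22 lower. The 5 calls of the fit by group rest on few libraries: EGR2 alone passed without EGF+H89 1 or without EGF+H89 2, and no gene passed without H89 1, H89 2 or H89 3 (edgeR, where 201 to 296 genes had p under 0.05 before adjustment). With the batch term the count was 25 without EGF+H89 1, 38 without EGF+H89 2, 37 without H89 1, 22 without H89 2 and 23 without H89 3, and 19 of the 50 genes passed in all of these. For orientation, both EGF+H89 libraries stood above all H89 libraries at 10.7% of tested genes and below all of them at 11.9%.

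**Figure D1:**
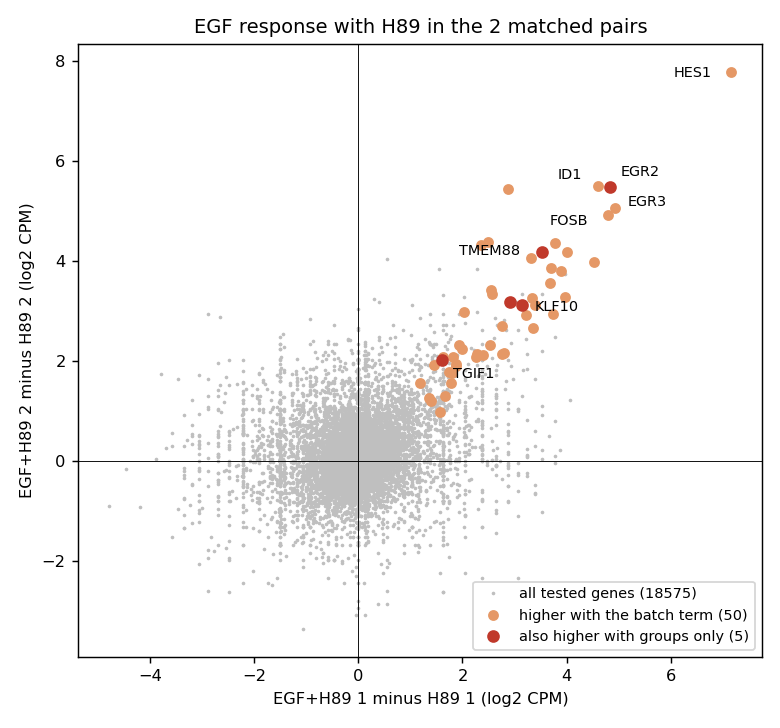
Each point is a gene, placed by its log2 CPM difference in the first matched pair (EGF+H89 1 minus H89 1, x axis) and in the second (EGF+H89 2 minus H89 2, y axis), with the 18575 tested genes in grey. The 50 genes higher with the batch term are orange or, for the 5 also higher with groups only, red, and all lie above 0 on both axes. They were called from these same libraries.

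EGR2, a zinc finger transcription factor of the early growth response family, had the lowest p of the 5 with groups only. Its level was 243 and 239.9 CPM in EGF+H89, against 8.46, 5.37 and 5.92 CPM in H89. The EGF+H89 libraries nearly coincided and lay far above every H89 library, at a log2 fold change of 5.20 ± 0.56 (SE) and an adjusted p of 0.00855. KLF10, a TGF-beta inducible zinc finger repressor, had 447 and 461 CPM in EGF+H89, against 50.7, 53.04 and 36.4 CPM in H89. CSRNP1, a nuclear protein first described as induced by AXIN1, had 123 and 134 CPM in EGF+H89, against 16.4, 14.8 and 22.1 CPM in H89. Both rose, with log2 fold changes of 3.28 ± 0.45 for KLF10 and 2.86 ± 0.39 for CSRNP1 and an adjusted p of 0.0295 for each. TGIF1, a homeodomain corepressor that restrains SMAD signalling, had 129 and 159 CPM in EGF+H89, against 42.5, 38.9 and 37.3 CPM in H89, a rise of 1.86 ± 0.26 on the log2 scale. TMEM88, a membrane protein that dampens WNT signalling, was scarce, with 30 and 99 reads (1.36 and 2.18 CPM) in EGF+H89, against 2, 5 and 1 reads (0.0783, 0.0792 and 0.0141 CPM) in H89.

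HES1, ID1, ID3, BHLHE40 and SNAI1 rose with the batch term. HES1, a repressor best known as a NOTCH target, had 39.8 and 65.0 CPM in EGF+H89, against 0.235, 0.253 and 1.03 CPM in H89. It was almost silent in all 3 H89 libraries, and its log2 fold change was 7.08 ± 0.73 (adjusted p = 0.000187). With groups only its adjusted p was 0.119. ID1 and ID3 block other helix-loop-helix factors. ID1 had 116 and 178 CPM in EGF+H89, against 4.74, 3.91 and 7.51 CPM in H89. ID3 had 69.9 and 105 CPM in EGF+H89, against 11.7, 10.4 and 15.2 CPM in H89. BHLHE40, a repressor that also acts in the circadian clock, had 207 and 257 CPM in EGF+H89, against 12.8, 14.2 and 20.96 CPM in H89. SNAI1, a zinc finger repressor of epithelial genes, had 18.1 and 21.1 CPM in EGF+H89, against 1.76, 2.17 and 1.74 CPM in H89.

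Classical immediate-early factors followed. EGR3, a relative of EGR2, had 49.0 and 49.3 CPM in EGF+H89, against 1.57, 1.44 and 3.29 CPM in H89. JUNB, a partner in the AP-1 dimer, had 755 and 876 CPM in EGF+H89, against 80.7, 115 and 54.9 CPM in H89. Both groups were far apart in these genes, with log2 fold changes of 4.87 ± 0.67 for EGR3 and 3.45 ± 0.57 for JUNB with the batch term. FOSB, another AP-1 subunit, had 7.64 and 15.2 CPM in EGF+H89, against 0.235, 0.459 and 0.890 CPM in H89. NR4A1, an orphan nuclear receptor and a CREB target, had 37.8 and 38.3 CPM in EGF+H89, against 2.51, 2.71 and 5.31 CPM in H89 (log2 fold change 3.71 ± 0.49, adjusted p = 0.0021). ATF3, a stress-inducible member of the ATF family, had 43.2 and 40.8 CPM in EGF+H89, against 8.89, 9.23 and 6.55 CPM in H89, and IER2 had 76.2 and 96.2 CPM in EGF+H89, against 15.9, 22.6 and 11.5 CPM in H89. In NR4A1 the EGF+H89 libraries again nearly coincided.

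**Figure D2:**
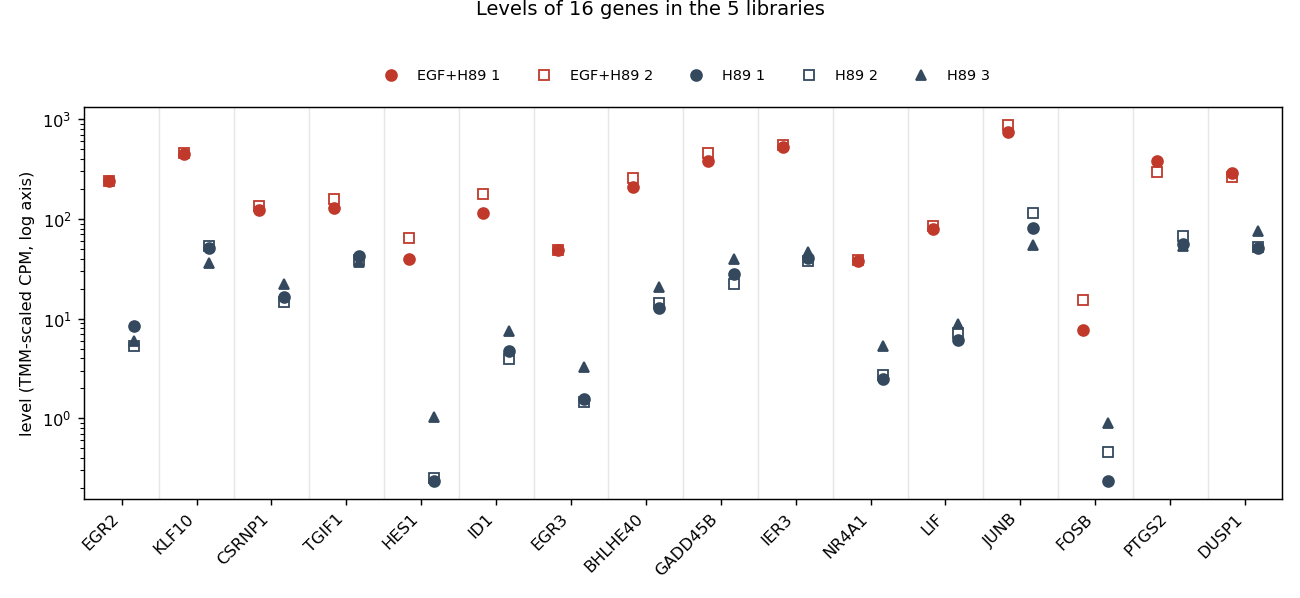
TMM-scaled CPM on a log axis for 16 genes, 1 symbol per library, with the 2 EGF+H89 libraries in red left of the 3 H89 libraries in dark blue. In every gene shown both EGF+H89 libraries lie above all H89 libraries; HES1 stood at 39.8 and 65.0 CPM in EGF+H89 and at 1.03 CPM or less in H89.

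Genes for regulators of signalling also rose with the batch term. IER3, a small early response protein that prolongs ERK signalling, had 525 and 553 CPM in EGF+H89, against 40.4, 38.1 and 46.3 CPM in H89, a log2 fold change of 3.83 ± 0.45 with the batch term. DUSP1 and DUSP5, phosphatases that switch off MAP kinases, differed in extent. DUSP1 had 293 and 263 CPM in EGF+H89, against 50.6, 52.3 and 75.0 CPM in H89, while DUSP5 had 42.3 and 39.9 CPM in EGF+H89, against 13.3, 16.2 and 15.8 CPM in H89. ERRFI1, a direct inhibitor of the EGF receptor, had 56.0 and 47.8 CPM in EGF+H89, against 21.1, 20.7 and 21.6 CPM in H89. GADD45B, a growth arrest and DNA damage protein, had 381 and 460 CPM in EGF+H89, against 27.7, 22.5 and 39.6 CPM in H89. Further genes that rose with the batch term were DUSP2, TRIB1, SMAD7, PLK3 and ZC3H12A, an RNase that degrades cytokine messages, with log2 fold changes from 1.99 in SMAD7 to 2.87 in DUSP2.

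Among secreted factors and the enzymes that make them, 3 genes rose with the batch term. LIF, a cytokine of the IL6 family, had 79.3 and 84.8 CPM in EGF+H89, against 6.15, 7.204 and 8.88 CPM in H89 (log2 fold change 3.59 ± 0.42, adjusted p = 0.00054). HBEGF, itself a ligand of the EGF receptor, had 8.68 and 10.4 CPM in EGF+H89, against 0.783, 1.17 and 3.40 CPM in H89. PTGS2, the inducible cyclooxygenase of prostaglandin synthesis, had 379.8 and 299.5 CPM in EGF+H89, against 56.4, 67.8 and 52.98 CPM in H89 (log2 fold change 2.45 ± 0.35, adjusted p = 0.00383). H89 3 was the highest H89 library for LIF and HBEGF and the lowest for PTGS2.

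Of 30 preset growth factor response genes, 2 rose with groups only and 15 with the batch term, while 11 more stood higher in both EGF+H89 libraries without passing either test. Over all tested genes, 0.0269% and 0.269% rose in the 2 fits and 10.7% stood higher in both EGF+H89 libraries. The preset genes were chosen with earlier results of these data known. FOS, the founding AP-1 subunit, was one of the 11, with 237 and 214 CPM in EGF+H89, against 41.7, 41.8 and 14.3 CPM in H89 (log2 difference 2.77 ± 0.60 and adjusted p = 0.0929 with the batch term). EGR1 had 231 and 282 CPM in EGF+H89, against 42.6, 84.6 and 15.3 CPM in H89, and its H89 libraries differed more among themselves than those of EGR2. JUN had 213 and 211 CPM in EGF+H89, against 80.2, 99.5 and 91.8 CPM in H89. MYC had 51.6 and 47.8 CPM in EGF+H89, against 26.5, 26.4 and 35.8 CPM in H89. The others were NR4A3, DUSP6, SPRY2, SPRY4, IL6, CYR61 and MCL1, with log2 differences of 0.87 to 1.49. The groups overlapped for NR4A2, CTGF and SRF, and PCF11 stood lower in both EGF+H89 libraries.

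Promoters are shown for the 3 genes of lowest p with the batch term among those 30 for which a window was at hand, EGR2, NR4A1 and PTGS2. They are given because SRF and CREB, the latter phosphorylated by MSK1 and MSK2, are known to control immediate-early promoters. Each window covers 250 bases before to 50 after a RefSeq start on GRCh38.p14, and where a gene has several starts (3 for EGR2, 2 for NR4A1) the one farthest downstream was used. The EGR2 window is chr10:62816317-62816616 on the minus strand, the NR4A1 window chr12:52037465-52037764 on the plus strand and the PTGS2 window chr1:186680374-186680673 on the minus strand. Capitals mark the cAMP response element (CRE) half-site TGACG or its reverse complement CGTCA, the TATA box letters TATAAA, and the CArG box, the sequence that SRF binds.
EGR2: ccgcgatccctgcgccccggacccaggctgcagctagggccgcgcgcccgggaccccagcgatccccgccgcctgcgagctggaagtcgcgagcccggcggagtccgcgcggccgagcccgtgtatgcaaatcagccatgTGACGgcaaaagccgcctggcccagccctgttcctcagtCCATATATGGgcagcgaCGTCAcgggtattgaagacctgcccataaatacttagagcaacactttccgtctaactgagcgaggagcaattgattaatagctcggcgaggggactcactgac
NR4A1: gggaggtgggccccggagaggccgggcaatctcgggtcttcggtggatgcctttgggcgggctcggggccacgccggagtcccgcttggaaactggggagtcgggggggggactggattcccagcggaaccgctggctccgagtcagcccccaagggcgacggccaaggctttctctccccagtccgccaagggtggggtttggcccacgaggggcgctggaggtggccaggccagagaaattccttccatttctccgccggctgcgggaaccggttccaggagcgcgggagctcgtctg
PTGS2: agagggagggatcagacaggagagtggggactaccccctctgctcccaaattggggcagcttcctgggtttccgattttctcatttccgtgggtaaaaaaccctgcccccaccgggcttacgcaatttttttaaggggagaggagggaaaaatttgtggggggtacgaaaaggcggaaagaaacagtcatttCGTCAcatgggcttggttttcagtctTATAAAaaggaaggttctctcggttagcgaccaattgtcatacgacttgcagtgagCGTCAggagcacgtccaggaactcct

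In the EGR2 window a CArG box, CCATATATGG, began 71 bases before the start and lay between half-sites that began 110 and 54 bases before it. The PTGS2 window held a half-site that began 58 bases before the start, a TATA box 32 bases before it and a second half-site within the first transcribed bases. The NR4A1 window held no match, which says only that these letters are not in this window. Over all 35116 windows of the table, 24.6% held a half-site, 1.29% a CArG box and 7.33% a TATA box. The search also covered the full CRE, TGACGTCA, which contains the half-site (1.85% of windows), and the AP-1 letters TGAGTCA and TGACTCA (4.95%), with the TATA box read on the sense strand alone and the other motifs on both strands. Windows were at hand for 33 of the 50 genes higher with the batch term. At the same choice of start, 13 of these 33 held a half-site (39.4%), against 24.3% of 27305 genes, and 8 held a TATA box (24.2%), against 7.88%. The full CRE was in 2 of the 33 (6.06%), against 1.90% of all genes, the CArG box in 2 (6.06%), against 1.28%, and the AP-1 letters in 1 (3.03%), against 5.19%. These shares are a description of chosen genes and carry no test.

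The host transcript of a microRNA cluster was among the genes higher with the batch term. LOC284454, named MIR23AHG in RefSeq, had 85.7 and 95.2 CPM in EGF+H89, against 8.54, 5.65 and 2.51 CPM in H89 (log2 fold change 4.04 ± 0.40, adjusted p = 0.000149). The hairpin genes MIR23A, MIR27A and MIR24-2 lie inside it on chromosome 19, minus strand, so reads of the host and of the hairpins cannot be told apart. MIR23A had 4.57 and 4.90 CPM in EGF+H89, against 0.861, 0.206 and 0.212 CPM in H89. MIR27A had 41 and 119 reads in EGF+H89, against 1, 8 and 10 reads in H89. MIR24-2 had 6 and 83 reads in EGF+H89, against 0 reads in each H89 library, so no fold is given. The mature strands that these hairpins yield are shown because they are the products the locus is known for, with the seed, bases 2 to 8, in capitals (RefSeq, GRCh38.p14); the libraries were not made to measure mature microRNAs, and the 3 seeds differ.
hsa-miR-23a-3p: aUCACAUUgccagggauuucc
hsa-miR-27a-3p: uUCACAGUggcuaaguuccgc
hsa-miR-24-3p: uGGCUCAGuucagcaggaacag

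Read by gene list, immediate-early transcription factors held the most genes that rose. Over all tested genes, 0.0269% rose with groups only and 0.269% with the batch term. List medians here and below are with groups only, unless the batch term or a pair of libraries is named. Of 28 immediate-early transcription factors, 3 rose with groups only and 12 with the batch term, none was lower, and 24 stood higher in both EGF+H89 libraries than in all H89 libraries (10.7% of all tested genes did), with a median log2 difference of 2.36 against -0.02 over all tested genes. Of 22 ERK and growth factor feedback regulators, 6 rose with the batch term and 12 stood higher in both libraries. Their median was 0.53 with groups only and 0.62 with the batch term. SOCS3, a brake on cytokine receptors, had 372 and 367 CPM in EGF+H89, against 113, 128 and 50.8 CPM in H89, and did not pass. All 11 tested genes of 12 from published work on MSK and histone H3 phosphorylation stood higher in both EGF+H89 libraries, and 5 of them rose with the batch term: HES1, IER3, PTGS2, NR4A1 and ATF3. The median of these 11 was 2.43. Of the 50 genes higher with the batch term, 26 are in none of the lists, among them the histone demethylase gene KDM6B (20.3 and 24.9 CPM in EGF+H89, against 2.98, 3.80 and 3.70 CPM in H89), the homeobox gene DLX2, the cell cycle coregulator SERTAD1, the sphingosine kinase SPHK1 and the microRNA host MIR17HG.

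In other signalling lists 1 to 3 genes rose with the batch term, where 0.269% of all tested genes did. Of 22 early secreted cytokines and growth factors, LIF alone rose with the batch term, while 12 stood higher in both EGF+H89 libraries and the median log2 difference was 0.82. IL11 had 25.1 and 27.97 CPM in EGF+H89, against 8.93, 5.46 and 12.4 CPM in H89, and GDF15 had 36.9 and 47.6 CPM in EGF+H89, against 11.2, 14.8 and 16.03 CPM in H89. Neither passed. Of 15 tested cAMP and CREB targets, NR4A1, FOSB and DUSP1 rose with the batch term, beside a list median of 0.22. PER1, a clock gene with CREs, had 25.8 and 24.2 CPM in EGF+H89, against 8.34, 8.33 and 6.26 CPM in H89, and did not pass. Among 20 NF-kappaB targets IRF1 alone rose with the batch term, with 109.6 and 95.9 CPM in EGF+H89, against 31.8, 32.4 and 23.7 CPM in H89, while 12 of the 20 stood higher in both EGF+H89 libraries and the median log2 difference was 0.55. Of 11 mRNA decay factors ZC3H12A rose with the batch term and 6 stood higher in both EGF+H89 libraries, where 10.7% of all tested genes did. ZFP36, which destabilises AU-rich messages, had 109 and 128 CPM in EGF+H89, against 17.9, 23.2 and 8.73 CPM in H89 (adjusted p = 0.0549 with the batch term). Of 10 tested EGF receptor family genes HBEGF alone rose, and EGFR itself had 117 and 114 CPM in EGF+H89, against 123, 153 and 157 CPM in H89.

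None of 23 kinase genes of the ERK, MSK and PKA pathway passed in either fit, and their median log2 difference was -0.17. RPS6KA5, which encodes MSK1, had 1.76 and 1.87 CPM in EGF+H89, against 0.861, 1.39 and 1.03 CPM in H89, and RPS6KA4, which encodes MSK2, had 48.2 and 53.3 CPM in EGF+H89, against 41.7, 49.4 and 72.0 CPM in H89. None of 19 FOXO and growth-arrest genes, 16 stress response genes, 18 ribosome biogenesis genes, 20 fibroblast genes, 13 histone genes or 9 small structured RNAs passed in either fit. Their median log2 differences were 0.06, -0.09, 0.06, -0.25, 0.21 and 0.66 in that order. The small RNAs differed between the matched pairs, with medians of -0.10 in the first and 1.16 in the second. Of 15 p53 targets PLK3 alone rose with the batch term, and of 14 tested matrix protease, prostaglandin and hyaluronan genes PTGS2 alone. Over all tested genes, 0.269% rose with that term.

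**Figure D3:**
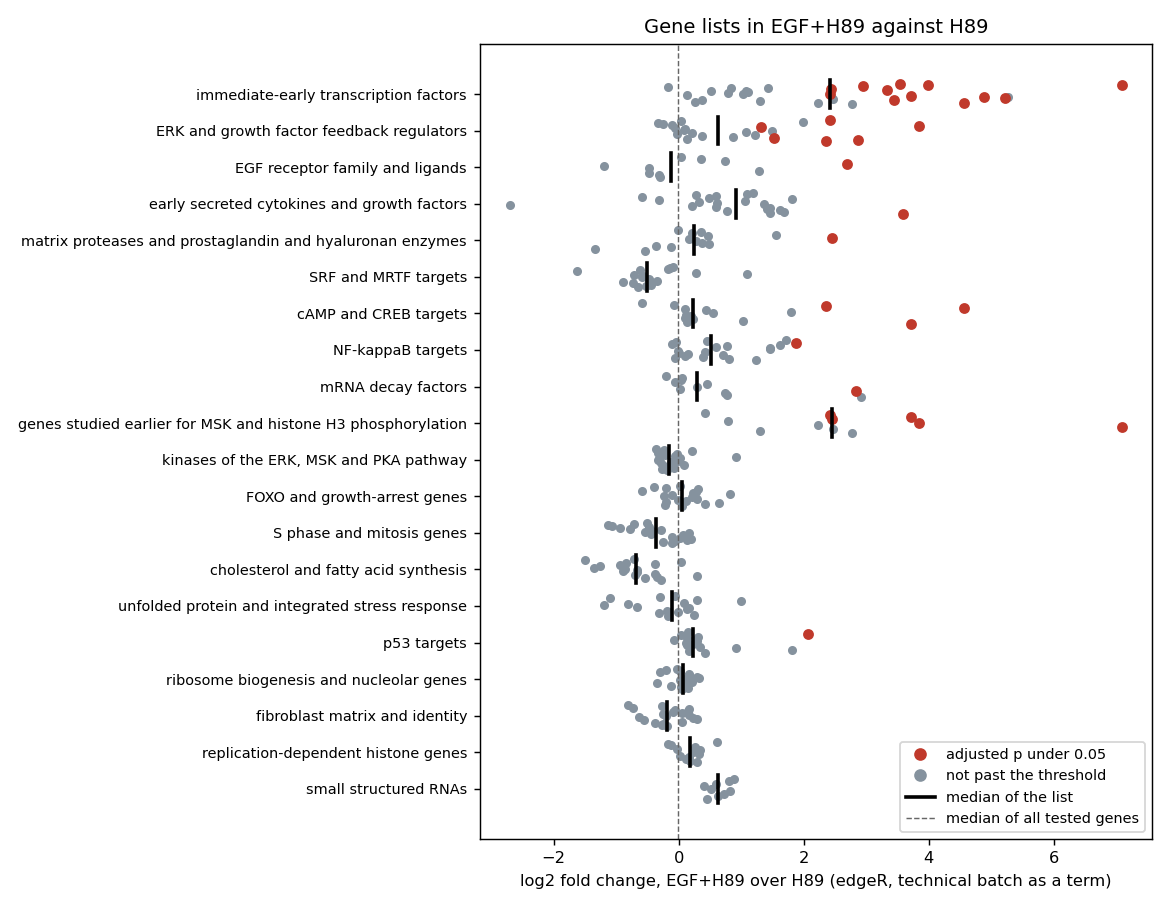
Log2 fold change of EGF+H89 over H89 with the technical batch as a term, 1 point per tested member of each list, red where the adjusted p is under 0.05, with a black bar at the list's median and a dashed line at the median of all tested genes. Red points lie in 10 lists and all are positive; the immediate-early transcription factors have a median of 2.43.

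Most S phase and mitosis genes stood lower in EGF+H89, without any passing a test. Of 20 such genes, none passed in either fit, 11 stood lower in both EGF+H89 libraries than in all H89 libraries (11.9% of all tested genes did) and the median log2 difference was -0.33. The mitotic kinase gene BUB1 had 2.94 and 3.19 CPM in EGF+H89, against 5.40, 7.30 and 8.42 CPM in H89, with an adjusted p of 1 with groups only. TOP2A, the topoisomerase of dividing cells, had 24.6 and 18.6 CPM in EGF+H89, against 34.4, 37.7 and 34.9 CPM in H89. MKI67, a proliferation marker, had 4.30 and 6.29 CPM in EGF+H89, against 8.14, 10.3 and 11.9 CPM in H89. In the matched pairs, 16 of the 20 were lower in EGF+H89 1 than in H89 1 and 18 in EGF+H89 2 than in H89 2, with medians of -0.20 and -0.25. Fewer cycling cells and less RNA per cell cannot be told apart in bulk libraries.

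Lower medians in 2 further lists came with H89 3. For 18 cholesterol and fatty acid synthesis genes the median log2 difference was -0.65, but it was 0.04 in the first matched pair, 0.00 in the second and -1.42 for EGF+H89 2 minus H89 3, and H89 3 had the highest level of the 5 libraries at all 18. DHCR7, which makes cholesterol in its last step, had 42.1 and 44.6 CPM in EGF+H89, against 45.8, 60.8 and 222 CPM in H89. SCD, a fatty acid desaturase, had 165 and 169 CPM in EGF+H89, against 166, 185 and 983 CPM in H89. For 18 SRF and MRTF targets the median was -0.53, with -0.06 and 0.02 in the matched pairs and -1.08 for EGF+H89 2 minus H89 3, and H89 3 was highest at 17 of the 18. FLNA, an actin crosslinker, had 1624 and 1549.6 CPM in EGF+H89, against 1823, 2153 and 4205 CPM in H89. No member of the sterol or SRF and MRTF lists passed in either fit. H89 3 also had the highest level at 19 of the 23 kinase genes and at 10 of the 20 S phase and mitosis genes. How often it was highest over all tested genes was not counted. Without H89 3, 0 genes were higher with groups only and 23 with the batch term.

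**Figure D4:**
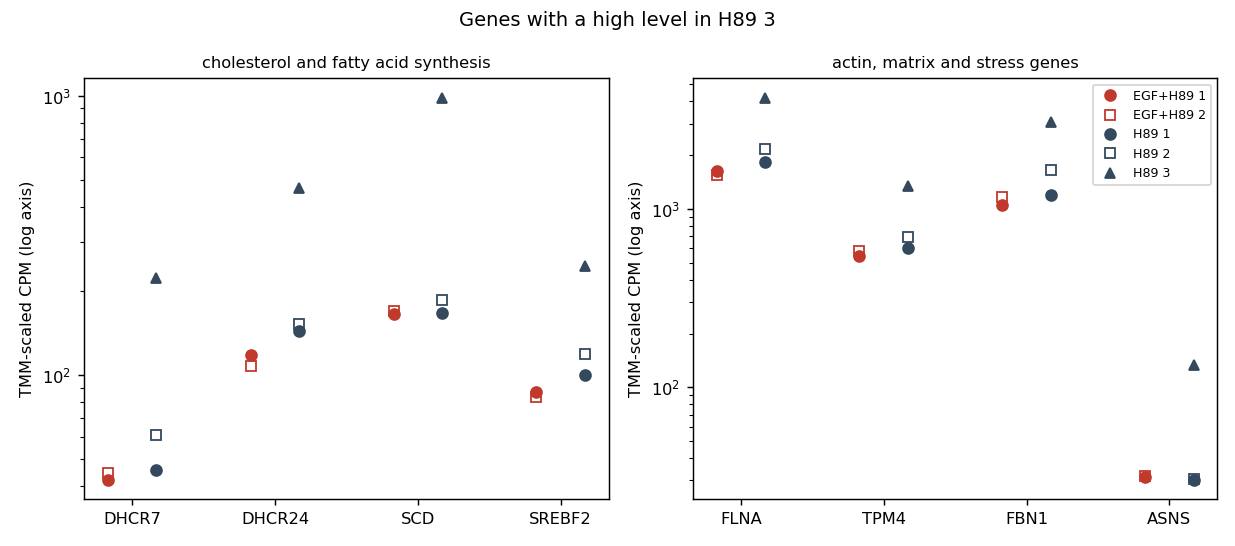
TMM-scaled CPM on log axes for 4 lipid synthesis genes (left) and 4 actin, matrix and stress genes (right), picked after their values were seen, with EGF+H89 libraries in red left of H89 libraries in dark blue. The triangle of H89 3 lies above the other 4 libraries in all 8; for SCD it stood at 983 CPM against 165 to 185 CPM in the others.

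The response to EGF with H89 was set against the response without it by the interaction, (EGF+H89 minus H89) minus (EGF minus Control). No gene passed with groups only or with the batch term, 0% of those tested in both (edgeR, where 48 and 144 genes had p under 0.05 before adjustment), and DESeq2 and limma with sample weights also called 0. That does not show the responses to be alike. Without H89, 41 genes were higher in EGF than in Control with the batch term, 0.221% of those tested. Of these, 23 were also among the 50, which is 46% of the genes higher with H89 and 56.1% of those higher without. All 50 had an EGF over Control log2 fold change above 0 with the batch term. Their median was 1.90, against 0.02 over all tested genes, and 45 were positive in each of the 3 EGF and Control pairs. How many of all tested genes were positive in these ways was not counted. These EGF and Control libraries share none with EGF+H89 and H89, but 1 fit gave both contrasts, with common batch terms.

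HES1 had the largest interaction with the batch term among the transcription factors named here, while with groups only FOSB did, at 4.97 against 3.20 for HES1. FOSB had 8.54, 4.30 and 7.69 CPM in EGF, against 28.8, 0.06 and 1.99 CPM in Control, so Control 1 stood far above Control 2 and 3. HES1 had 4.71, 7.33 and 33.1 CPM in EGF, against 2.19, 0.120 and 1.72 CPM in Control. Its interaction was 3.88 with a 95% interval of 1.93 to 5.82 with the batch term (adjusted p = 1 in edgeR). ID1 had 8.27, 29.4 and 113 CPM in EGF, against 5.23, 6.66 and 12.5 CPM in Control, and its interaction was 2.94 with the batch term (95% interval 1.05 to 4.83) and 2.14 with groups only, where the interval spanned 0 (-0.84 to 5.12). The EGF libraries spread widely in HES1 and ID1, with EGF 3 highest. DUSP5 went the other way, with 75.7, 104 and 97.2 CPM in EGF, against 11.5, 13.9 and 19.5 CPM in Control, and an interaction of -1.13 with the batch term (95% interval -1.85 to -0.41). HES1, ID1 and FOSB were named for their rise in EGF+H89, and HES1, FOSB and DUSP5 for a low interaction p. Their intervals are unadjusted and none of these interactions passed adjustment, so an interval off 0 adds no support. Of the 50 genes, 42 had an interaction above 0 and 8 below, but they were chosen for a high EGF+H89 over H89 difference, which enters the interaction, so these counts support nothing.

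For several immediate-early genes the interval spanned 0. The interaction with the batch term was 0.11 for NR4A1 (95% interval -1.23 to 1.46), 0.10 for FOS (-1.68 to 1.88), -0.69 for EGR1 (-2.62 to 1.23), -0.43 for PTGS2 (-1.43 to 0.57) and 1.30 for EGR2 (-0.03 to 2.63). NR4A1 had 87.2, 75.8 and 71.0 CPM in EGF, against 12.9, 2.04 and 8.91 CPM in Control. Its log2 fold change with the batch term was 3.71 with H89 and 3.60 without. FOS had 230 and 174 CPM in EGF 1 and 2 and 90.3 CPM in EGF 3, against 138, 5.10 and 15.7 CPM in Control 1, 2 and 3. Control 1 stood apart there, as Control 1 and EGF 1 did from the other libraries in general, with median correlations of 0.885 and 0.865.

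PCF11, which terminates transcription at the 3′ ends of genes, and ZNF93 and ZNF548, zinc finger genes, stood higher in all 3 EGF libraries than in all 3 Control libraries, but not in EGF+H89 against H89. PCF11 had 59.1, 67.2 and 61.2 CPM in EGF, against 41.1, 37.6 and 48.6 CPM in Control, while it had 28.6 and 24.8 CPM in EGF+H89, against 36.8, 35.6 and 30.3 CPM in H89. The groups did not overlap in either arm, and the interaction was -0.92 with groups only (95% interval -1.55 to -0.28, adjusted p = 1 in edgeR). GBP1, an interferon-inducible GTPase, had 62.4, 149 and 130 CPM in EGF, against 23.8, 61.3 and 54.2 CPM in Control, while it had 62.4 and 64.3 CPM in EGF+H89, against 62.2, 61.7 and 130 CPM in H89. CYR61, a matricellular protein gene, had, with the batch term, a log2 fold change of 1.09 with H89 and 2.13 without, and an interaction of -1.04 (95% interval -1.96 to -0.12). With groups only its interval spanned 0 (-1.98 to 0.02). CLK1, a kinase of splicing factors, had 102 and 91.9 CPM in EGF+H89, against 54.6, 40.4 and 25.9 CPM in H89, and 55.6, 81.8 and 73.0 CPM in EGF, against 44.2, 94.1 and 98.7 CPM in Control. ZNF93, ZNF548, GBP1 and CLK1 were named for a low interaction p, and PCF11, a preset gene, also ranked there. A difference between the arms thus follows from the choice and adds no support. How many of all tested genes stood apart in EGF against Control was not counted.

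**Figure D5:**
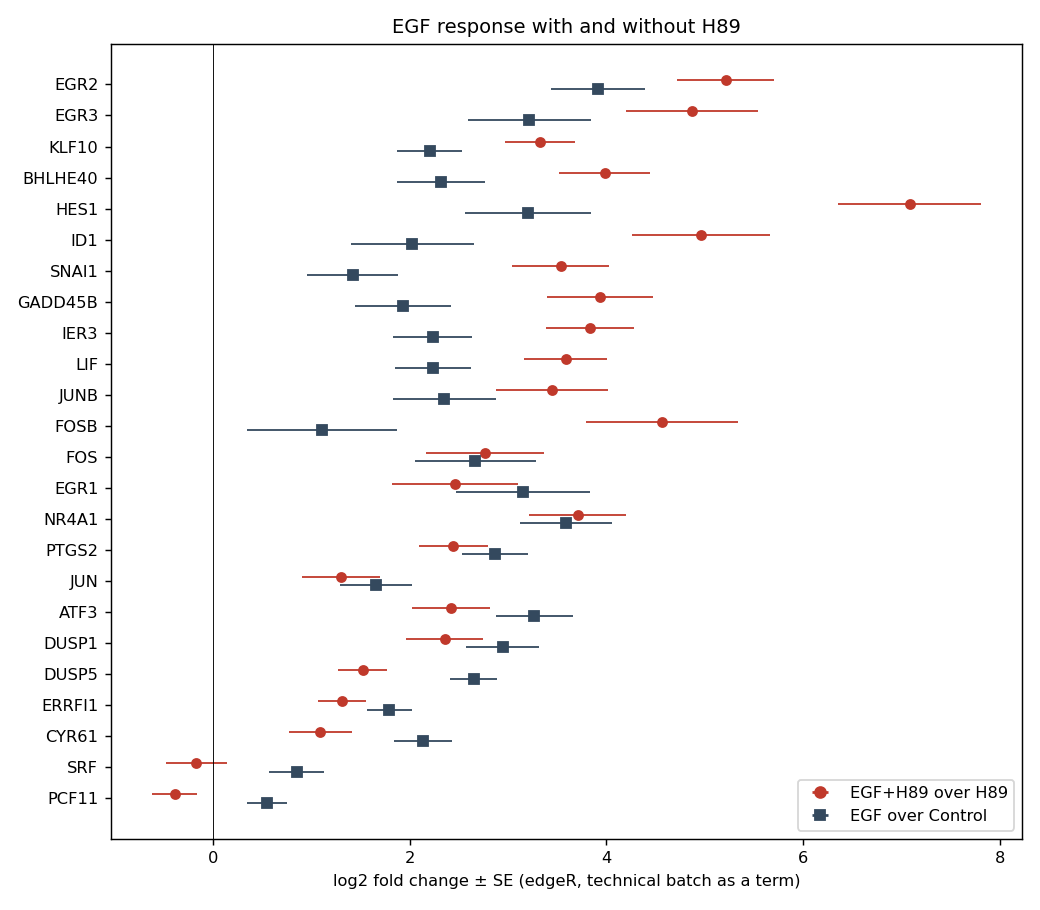
Log2 fold change ± SE from edgeR with the technical batch as a term for 24 genes, with EGF+H89 over H89 as red circles above EGF over Control as dark blue squares. HES1 lies at 7.08 with H89 and 3.21 without, and PCF11 at -0.38 with H89 and 0.55 without; no difference between the 2 symbols of a gene passed adjustment over all tested genes.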

How the data were processed

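The values were the deposited raw counts of reads per gene symbol, 28374 genes in 16 samples. Libraries were strand-specific, from total RNA after removal of ribosomal RNA, per the labels' protocols, which name 3 sequencing platforms but not which sample ran on which. HOMER, hg19 and GRCh37 stand in the submitters' processing notes. Which aligner, annotation version and strand setting were used is not stated in the sources used here. RefSeq sequences on GRCh38.p14 were matched by symbol only.

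R 4.3.3 and edgeR 4.0.16 were used. Genes passed filterByExpr at a smallest count of 10, libraries were scaled by TMM, and 15 libraries were fitted by group with quasi-likelihood tests, adjusted by Benjamini-Hochberg over 18575 genes at 0.05. Technical batches (3) were read from the ribosomal RNA share and the numbers of genes at 1 and 2 counts. Levels are TMM-scaled CPM, marker sums included. Alternatives included DESeq2 1.42.0 and limma 3.58.1. The code was tested on simulated data.

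Members, lists, preset genes and the batches were chosen with earlier results of these data known. Genes named were up to 12 largest rises and falls per fit (non-overlapping, at least 1 CPM), 30 preset genes, up to 4 per list by p and up to 8 per interaction fit, and further genes past the threshold or in the lists were picked after their values were seen. Reads of overlapping genes may be shared. Mitochondrial, X-inactivation and Y-linked genes were not named.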

Additional observations from a re-analysis of the deposited data

Results flagged for a closer look

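In 3 of the genes named by the rule, with a mean of at least 1 CPM over the 5 libraries, the matched EGF+H89 and H89 pairs all moved one way and the 3 EGF and Control pairs all moved the other way. That held for 305 of 13132 tested genes with such a mean (2.32%). All 3 were among the genes of lowest interaction p, which favours opposite moves. SNORD116-29, below 1 CPM, also showed it, but was at 0 in both EGF+H89 libraries. PCF11 had an interaction of -0.92 (log2, groups only), with -0.37 and -0.52 in the pairs with H89 and 0.53, 0.84 and 0.33 in the pairs without. ZNF93, a zinc finger gene, had an interaction of -1.96, with 0.769 and 1.41 CPM in EGF+H89, against 1.57, 1.73 and 2.37 CPM in H89, and 2.74, 4.67 and 4.93 CPM in EGF, against 1.56, 1.74 and 2.17 CPM in Control. HMOX1, the heme oxygenase gene, had an interaction of 1.22, with 17.05 and 28.4 CPM in EGF+H89, against 9.87, 9.85 and 12.1 CPM in H89, and 28.2, 7.33 and 11.1 CPM in EGF, against 29.6, 8.64 and 12.3 CPM in Control. The adjusted p of the interaction was 1 in edgeR for all 3 genes, with groups only and with the batch term.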

How the results depend on the processing

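The count of genes higher in EGF+H89, 5 with groups only, was 50 with DESeq2, 9 with no filter, 49 with only the compared groups, 50 with the batch term, 44 with sets of sample names as a block, 45 without Control 1, EGF 1 and TPA 2, 191 with limma weights, 1 with a log2 fold threshold of 1 (EGR2) and 0 to 1 without single libraries. With settings chosen after seeing the data it was, with the batch term, 25 and 38 without EGF+H89 1 and 2, then 37, 22 and 23 without H89 1, 2 and 3, and 47 with only the compared groups. Lower genes were 1 with DESeq2 and 22 with limma weights, and 0 otherwise. The interaction called 0 in every setting run. All 1095 alternative log2 values of the 50 genes were positive. The 50 were called for being higher in these same libraries, so these signs add no support. Direction turned for CTGF (-0.10 with the batch term and no H89 1), NR4A2 (-0.21 with the batch term and no EGF+H89 2, -0.0872 and no H89 1), SRF (-0.35 to 0.10 over single libraries left out, 0.0951 without H89 3, 0.0951 with the batch term too) and GBP1 (-0.60 to 0.0332, 0.0332 without H89 3, 0.0353 with the batch term too). The cause was not tested. List medians moved by more than 1 SD between the matched pairs in 123 of 528 alternative values. With 2 libraries against 3, small changes were not detectable.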
